A study of Rattus norvegicus with 3 samples.

Results

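The proteasome subunits described here are the rat genes whose symbols start with Psma, Psmb, Psmc, Psmd or Psme and to which the RefSeq accession of an array probe belongs. The rule took 47 probes of 43 genes out of 30367 probes other than controls. Of these genes, 42 were measured well above background in at least 1 channel on all 3 arrays and were tested, among 14188 genes tested in all. Of the 14188, 8917 had a gene symbol. The rest are listed by probe name or accession and count as genes in each share of all genes given below. Subunits, assembly factors and activators made up 40 of the 42, and the remaining pair, Psmc3ip and Psme3ip1, share the prefix but are not subunits and were kept apart. Psma8, the alpha subunit of testis, had 3 probes and was not well above background in either channel on any array. No probe carried an accession of Psmd11, of the thymus subunit Psmb11 or of the gene copies Psmb3l1, Psmb3l2 and Psmb6l1. The reference table also lists 46 pseudogenes with these prefixes, none of them with a probe of its own, so a value of a gene with near-identical copies is uncertain to the extent that its probe also binds their transcripts.

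Total RNA of the kidney was compared between male Sprague-Dawley rats, bought at 5 weeks of age, that drank water with 200 ppm GABA (G200) and control rats of the same strain, sex and age without it. Each of the 3 Agilent arrays carried control RNA in Cy3 and RNA of a G200 rat in Cy5, with 0 arrays of exchanged dyes, so the dye and the treatment cannot be told apart, and ratios are given as log2 of G200 over control. The 3 control channels differed by about the error of replicate spots. Over 1116 probes, the median squared difference between arrays was 0.379 to 0.555 times the squared spot error. In the G200 channels it was 2.71 to 7.29 times, over 1099 probes. The control channels were counted as 1 control sample, so the tests do not hold the variation among control rats. Overlap of levels between groups, given below, compares 3 G200 levels with 3 readings of that control sample. It does not show the range of control rats, and no share over all genes is given for it.

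The proteasome degrades proteins tagged with ubiquitin. Rings of alpha subunits enclose rings of beta subunits, some of which carry the proteolytic sites, and a cap of ATPase and non-ATPase subunits recognises, unfolds and feeds in the substrate. In immune cells and under interferon, the catalytic beta subunits are replaced by Psmb8, Psmb9 and Psmb10 and the cap can give way to the activator of Psme1 and Psme2, a form known for cutting peptides for presentation on MHC class I.

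All 42 genes were well above background in both channels on each array, so none of their ratios is a bound. At an adjusted p (Benjamini-Hochberg, over all genes tested) under 0.05, limma called 12 of the 40 subunit genes higher in G200, against 11.5% of all genes tested, and 5 lower, against 26.0% of all genes, while 22 of the 40 and 6961 of the 14188 genes tested had an unadjusted p under that threshold. With loess no subunit reached 2-fold, a size that 4.06% of all genes passed together with the adjusted threshold. The mean log2 ratios of the subunits lay between -0.50 and 0.57, with a median of 0.05 against -0.05 over all genes. The median size of the ratio, whatever its sign, was 0.19 in the subunits and 0.18 in all genes.

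These directions depended on the scaling between the dyes. When arrays were median-centred and not fitted by loess, 27 subunits were called higher and 0 lower, beside 4956 and 1269 of the 14188 genes tested, while the all-gene median shifted from -0.05 to 0.27. The means of Psma1, Psmb3, Psma7, Psmb6, Psmd6 and Psmb1 then passed 2-fold, from 1.20 for Psma1 down to 1.02 for Psmb1. With no normalization between the dyes 39 subunits were called higher and 0 lower, beside 8010 and 304 genes, at an all-gene median of 0.62. Relative to the median of all genes, the subunit median was higher by 0.10 with loess and by 0.41 with either of the other scalings, a distance that was smaller against genes of like brightness (0.69 for the members and 0.63 for all genes in the brightest of 3 groups of genes split by intensity, with median centring). The calls also depended on single arrays. Without replicate 3 limma called 0 subunits in either direction and 1507 genes in all, in place of 5318, and without replicate 1 it called 5 subunits higher and 3 lower and 3549 genes in all.

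**Figure D1:**
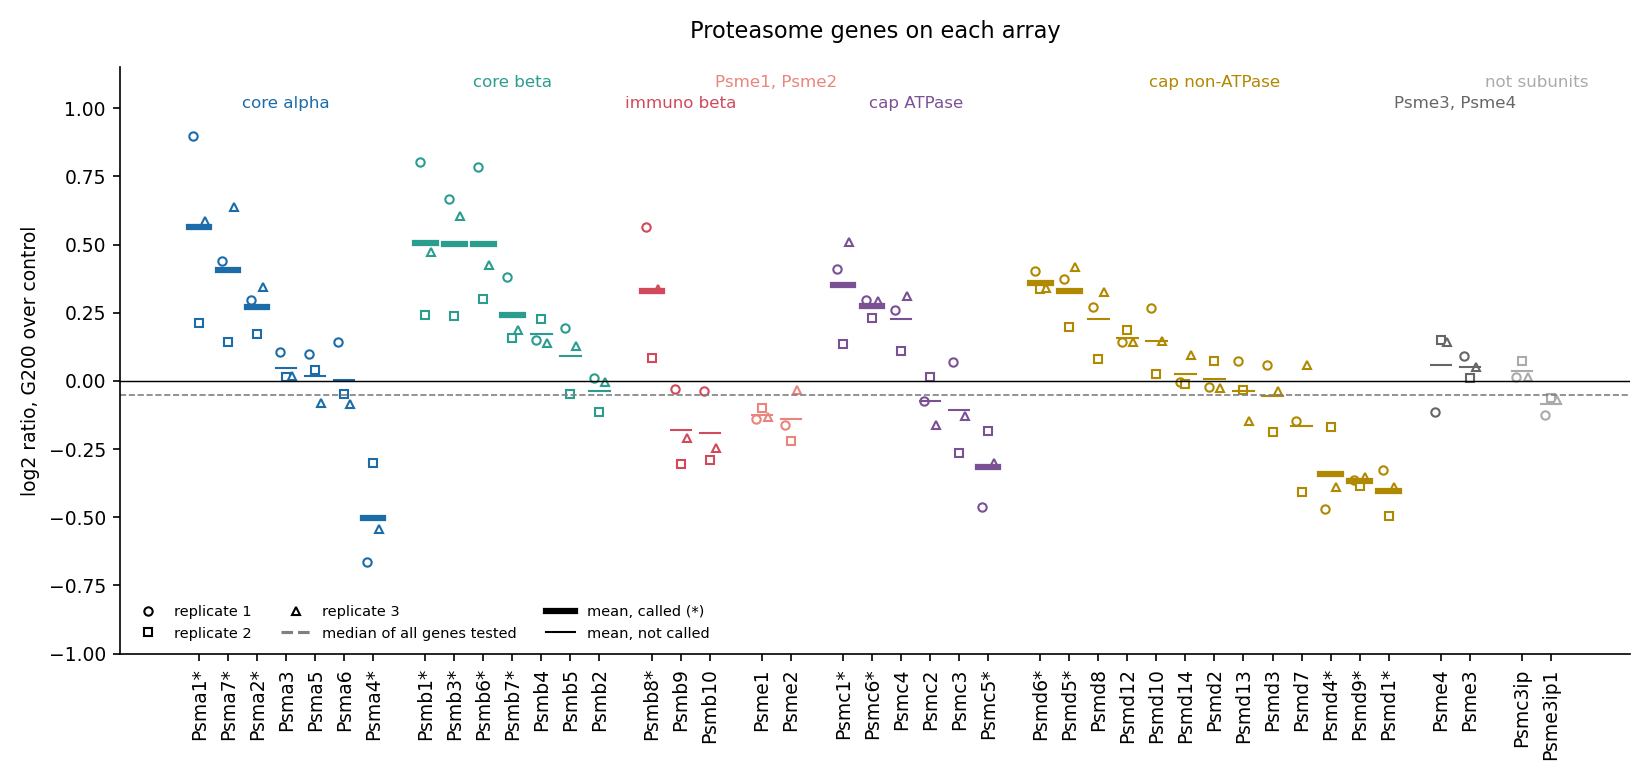
Log2 ratio of G200 over control (vertical axis) for the 42 proteasome genes, grouped by class, with 1 point for each of the 3 arrays and a bar for the mean, thick where limma's adjusted p passed the threshold. Called genes of both directions lie in the alpha ring and in the cap and the called beta subunits are all above 0, whereas with median centring 0 subunits were called lower.

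Among the alpha subunits of the core, which form the outer rings and gate the entry, 3 of 7 were called higher and 1 lower. Over all genes 11.5% were called higher and 26.0% lower. Psma1 had the highest ratio of any subunit. Its log2 level was 8.97, 8.91 and 8.92 in the control and 9.86, 9.12 and 9.50 in G200 on replicates 1, 2 and 3, so each G200 level was above each control level. The log2 ratio was 0.90, 0.21 and 0.59, a mean of 0.57 ± 0.34 (SD, n = 3; limma adjusted p = 0.0188). Psma7 and Psma2 were called higher as well, at means of 0.41 and 0.27.

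Psma4 went the other way. Its log2 level was 11.80, 12.00 and 11.92 in the control and 11.14, 11.70 and 11.38 in G200, with no overlap between the groups. The log2 ratio was -0.66, -0.30 and -0.54 on the 3 arrays, a mean of -0.50 ± 0.18 (SD, n = 3; limma adjusted p = 0.00809). Median centring turned the mean of Psma4 to 0.26, beside a median of 0.27 over all genes and of 0.63 over the brightest group, to which it belongs. The remaining alpha subunits, Psma3, Psma5 and Psma6, had means between 0.00 and 0.05 and passed no threshold. Psma6 had log2 levels of 11.12, 11.16 and 11.16 in the control and 11.26, 11.11 and 11.08 in G200. Its G200 level was above the control on replicate 1 and below it on the others (limma adjusted p = 0.964).

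Of the 7 constitutive beta subunits 4 were called higher and 0 lower, against 11.5% and 26.0% of all genes. An unadjusted limma p under 0.05 was reached by 5 of the 7, beside 6961 of the 14188 genes tested. Psmb1, a structural subunit of the inner ring, had log2 levels of 7.55, 7.86 and 7.94 in the control and 8.35, 8.10 and 8.41 in G200. The ratio was 0.80, 0.24 and 0.47, a mean of 0.51 ± 0.28 (SD, n = 3; limma adjusted p = 0.0168), and the groups did not overlap. Psmb3, likewise without a proteolytic site of its own, stood at 9.55, 9.54 and 9.50 in the control and 10.22, 9.77 and 10.11 in G200, with a mean ratio of 0.50 ± 0.23 (SD, n = 3; limma adjusted p = 0.0118). The G200 levels of Psmb3 were all above its control levels, least so on replicate 2.

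The 3 catalytic beta subunits differed in their values. Psmb6, which carries the caspase-like activity, had log2 levels of 8.26, 8.07 and 8.19 in the control and 9.04, 8.37 and 8.62 in G200, a mean ratio of 0.50 ± 0.25 (SD, n = 3; limma adjusted p = 0.0139). Its groups did not overlap, and replicate 1 of G200 was the highest. Psmb7, the trypsin-like subunit, stood at 7.57, 8.21 and 8.17 in the control and at 7.95, 8.36 and 8.35 in G200. Its groups overlapped, with both channels of replicate 1 low, and the ratio within each array was above 0, at 0.38, 0.16 and 0.19 (mean 0.24 ± 0.12, SD, n = 3; limma adjusted p = 0.0467). That call lay near the threshold and was made under 7 of 20 alternatives, with adjusted p from 0.00707 to 0.530. Psmb5, the chymotrypsin-like subunit, was at 10.67, 10.62 and 10.61 in the control and 10.86, 10.57 and 10.74 in G200. Replicate 2 of G200 lay below the control levels and the others above, and the mean did not pass the threshold (0.09 ± 0.13, SD, n = 3; limma adjusted p = 0.364). Psmb2, a structural subunit with the lowest ratio of the beta ring, was at 9.79, 9.83 and 9.83 in the control and 9.80, 9.71 and 9.82 in G200. Its groups overlapped, and its mean was -0.04 ± 0.07 (SD, n = 3; limma adjusted p = 0.695), or 0.64 with median centring.

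The beta ring had the highest class median. It was 0.24, with 0.38, 0.23 and 0.19 on replicates 1, 2 and 3, against a median of 0.05 for the alpha subunits. Its distance from the median of all genes was 0.29 with loess and 0.66 with median centring. The beta subunits were bright, with a median log2 intensity of 9.78 against 7.45 over all genes, and with median centring their class median of 0.92 stood beside 0.63 for all genes of the brightest group. Classes were described by counts and medians, and no test over a class was run.

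The 5 immunoproteasome subunits had a class median of -0.14 with loess. Of them 1 was called higher and 0 lower, against 11.5% and 26.0% of all genes. With median centring the class median turned to 0.52, beside 0.27 for all genes and 0.63 for all genes of the brightest group. Psmb8, the counterpart of Psmb5, was the dimmest of the 5 subunits, at a log2 level of 6.19, 6.45 and 6.53 in the control and 6.75, 6.53 and 6.87 in G200. The lowest G200 level thus did not exceed the highest control level. Its ratio was 0.57, 0.08 and 0.34 (mean 0.33 ± 0.24, SD, n = 3; limma adjusted p = 0.0469). That call lay at the threshold, was made under 8 of 20 alternatives and was lost with median centring, where limma gave an adjusted p of 0.0658 (0.0193 to 0.253 over the alternatives). The mean ratio of Psmb8 was 0.41 with median centring, beside a median of 0.27 over all genes. Its distance from the all-gene median was 0.38 with loess and 0.15 with median centring. In the dimmest of the 3 brightness groups, to which Psmb8 belongs, the all-gene median was -0.05 with loess and -0.04 with median centring.

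Psmb9, the counterpart of Psmb6, had log2 levels of 8.78, 8.84 and 8.82 in the control and 8.75, 8.54 and 8.61 in G200, each G200 level lying below the control levels. Its mean ratio was -0.18 ± 0.14 (SD, n = 3; limma adjusted p = 0.113) and did not pass the threshold. Psmb10, the counterpart of Psmb7, stood at 10.48, 10.49 and 10.44 against 10.44, 10.20 and 10.20, a mean ratio of -0.19 ± 0.13 (SD, n = 3; limma adjusted p = 0.0975). Replicates 2 and 3 of Psmb10 in G200 lay below the control, and replicate 1 was level with the lowest control value. The means of Psmb9 and Psmb10 were 0.42 and 0.52 with median centring, both above 0.

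Psme1 and Psme2 form the ring that can replace the cap. Psme1 was at 12.29, 12.03 and 12.10 in the control and 12.15, 11.93 and 11.97 in G200, a mean ratio of -0.12 ± 0.02 (SD, n = 3; limma adjusted p = 0.169). Psme2 was at 11.29, 11.33 and 11.34 against 11.13, 11.11 and 11.31, with a mean of -0.14 ± 0.09 (SD, n = 3; limma adjusted p = 0.164). The levels of the groups overlapped for both genes, while the sign of the ratio was negative on all 3 arrays and turned positive with median centring, at 0.65 and 0.61.

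**Figure D2:**
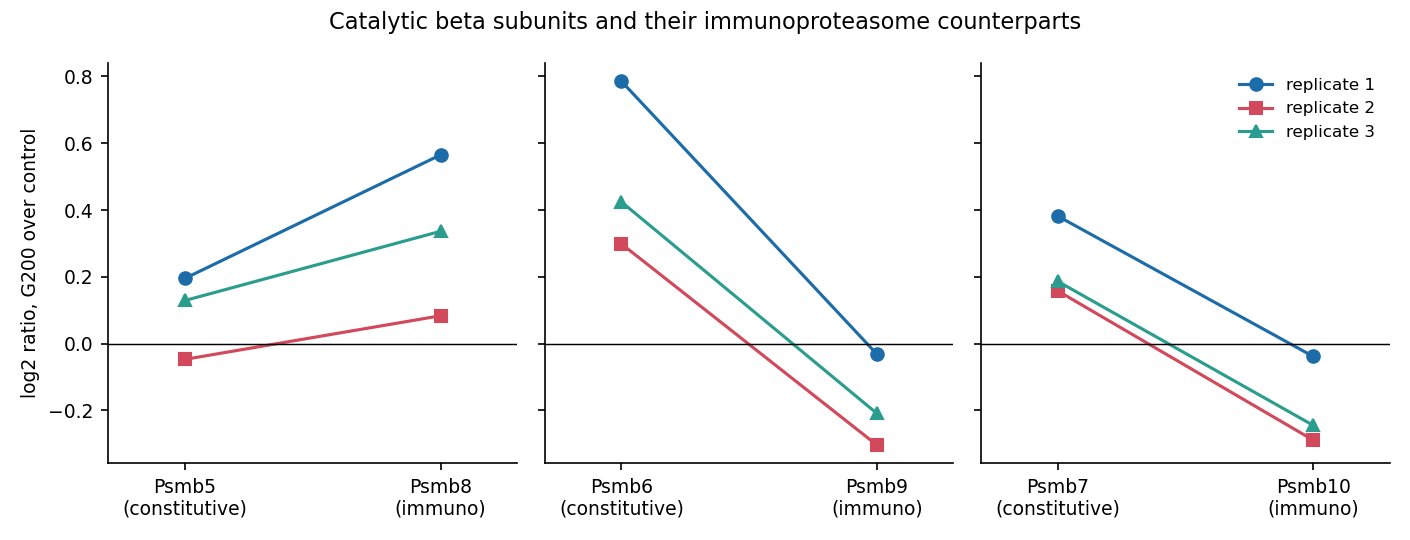
Log2 ratio of G200 over control (vertical axis) for each constitutive catalytic beta subunit and the immunoproteasome subunit that takes its place, with 1 line for each of the 3 arrays. Psmb9 and Psmb10 lie below Psmb6 and Psmb7 on each array, and Psmb8 lies above Psmb5 with loess but below it with median centring (a difference of -0.40). Median centring does not adjust for brightness. It left all-gene medians of -0.04 in the dimmest group, which holds Psmb8, and 0.63 in the brightest, which holds Psmb5.

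Within each array the immunoproteasome subunit was set against the constitutive one, as a difference of 2 log ratios. Psmb9 was lower than Psmb6 by -0.82, -0.60 and -0.63 on replicates 1, 2 and 3, and Psmb10 was lower than Psmb7 by -0.42, -0.45 and -0.43. The mean differences were -0.68 ± 0.12 and -0.43 ± 0.01 (SD, n = 3). Psmb8 differed from Psmb5 by 0.37, 0.13 and 0.21, a mean of 0.24 ± 0.12 (SD, n = 3). With median centring that mean became -0.40, while the other differences stayed negative at -0.66 and -0.24. Psmb8 lies in the dimmest of the 3 brightness groups and Psmb5 in the brightest. Median centring does not adjust for brightness and left all-gene medians of -0.04 and 0.63 in these groups. The part of brightness in this change of sign was not tested. All 3 pairs had p = 0.25 in an exact two-sided sign-flip permutation test, the smallest value this test can give with 3 arrays, and 0.25 after adjustment over the 3 pairs, so this test could not reach the threshold.

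The promoters of the immunoproteasome genes are shown because interferon is known to act on this gene group through them, and because 1 of the 5 genes was called and the others were not. Promoters of 300 bases (250 before and 50 after the start) from RefSeq, build GRCr8, were matched to 36 of the 40 subunits. The letters GAAANNGAA, part of the interferon-stimulated response element, were searched on both strands. They were found in 3 of the 5 immunoproteasome promoters, in 7 of all 36 subunit promoters (19.4%; 2 of 10 called higher, 1 of 5 called lower and 4 of 21 not called) and in 9.71% of 33469 rat promoters. The 3 carriers, Psmb8 (chr20:4656982-4657281, minus strand), Psmb10 (chr19:50743243-50743542, minus strand) and Psme2 (chr15:33052702-33053001, minus strand), are given from 5′ to 3′ with the matches in capitals, on either strand.
Psmb8: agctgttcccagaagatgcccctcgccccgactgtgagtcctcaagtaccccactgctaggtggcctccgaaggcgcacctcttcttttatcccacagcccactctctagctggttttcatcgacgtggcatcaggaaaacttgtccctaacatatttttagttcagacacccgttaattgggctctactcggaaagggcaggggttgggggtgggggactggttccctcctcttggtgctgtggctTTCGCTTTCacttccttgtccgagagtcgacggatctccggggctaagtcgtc
Psmb10: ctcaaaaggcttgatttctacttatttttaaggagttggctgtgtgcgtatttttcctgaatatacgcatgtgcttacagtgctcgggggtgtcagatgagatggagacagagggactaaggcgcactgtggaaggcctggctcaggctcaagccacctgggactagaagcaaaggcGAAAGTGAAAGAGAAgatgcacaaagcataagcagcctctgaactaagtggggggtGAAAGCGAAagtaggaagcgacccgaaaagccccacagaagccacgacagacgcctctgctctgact
Psme2: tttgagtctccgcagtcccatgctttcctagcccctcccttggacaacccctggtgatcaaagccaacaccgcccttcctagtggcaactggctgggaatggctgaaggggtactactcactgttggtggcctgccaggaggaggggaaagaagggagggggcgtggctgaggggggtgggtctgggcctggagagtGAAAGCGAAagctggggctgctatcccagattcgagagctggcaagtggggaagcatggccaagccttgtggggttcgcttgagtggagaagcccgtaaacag
The gene called higher, Psmb8, carried 1 match, and Psmb10, which was not called, carried 3 that partly overlap. A match describes letters only, and binding of a factor was not measured.

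In the cap, 4 of 19 subunits were called higher and 4 lower, against 11.5% and 26.0% of all genes, with a median of 0.01. The 6 ATPases, which unfold the substrate, had 2 called higher, Psmc1 and Psmc6, and 1 lower, Psmc5, with a median of 0.08. Psmc1 had log2 levels of 9.07, 8.96 and 8.97 in the control and 9.48, 9.10 and 9.48 in G200. No level overlapped between the groups, and the mean ratio was 0.35 ± 0.19 (SD, n = 3; limma adjusted p = 0.0266). Psmc5 had a mean of -0.31 ± 0.14 (SD, n = 3) with loess and 0.46 with median centring.

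The 13 non-ATPase genes had 2 called higher and 3 lower, against 11.5% and 26.0% of all genes, with a median of 0.01. Psmd6, a lid subunit measured by 10 spots, had log2 levels of 10.19, 10.18 and 10.15 in the control and 10.60, 10.52 and 10.49 in G200. All G200 levels were above the control levels, and the mean ratio was 0.36 ± 0.04 (SD, n = 3; limma adjusted p = 0.00863). Psmd5 was at 6.77, 6.77 and 6.65 against 7.15, 6.96 and 7.07, with a mean of 0.33 ± 0.12 (SD, n = 3; limma adjusted p = 0.0175). Psmd5, Psmd9 and Psmd10 are chaperones of cap assembly and not parts of the finished particle, and without them the class had 1 gene called higher and 2 lower of 10.

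The lowest ratios of the cap were those of Psmd1, Psmd9 and Psmd4. Psmd1, the large scaffold of the base, was at 10.69, 11.09 and 11.10 in the control and 10.36, 10.60 and 10.71 in G200. The groups overlapped through replicate 1, where both channels were lower, and the ratio within the arrays was -0.33, -0.50 and -0.39 (mean -0.40 ± 0.09, SD, n = 3; limma adjusted p = 0.00762). Psmd4, a ubiquitin receptor, was at 10.81, 10.73 and 10.73 against 10.35, 10.56 and 10.34, with a mean of -0.34 ± 0.15 (SD, n = 3; limma adjusted p = 0.0210). All G200 levels of Psmd4 were below its control levels.

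Psmd9 was at 9.53, 9.57 and 9.60 in the control and 9.16, 9.19 and 9.24 in G200, a mean of -0.37 ± 0.02 (SD, n = 3; limma adjusted p = 0.00780). A second, dimmer probe of Psmd9 gave 0.09, -0.19 and 0.06, so its probes disagreed, and the mean over both was -0.19 with an adjusted p of 0.0711 from limma. With median centring the means of Psmd1, Psmd9 and Psmd4 were 0.32, 0.28 and 0.37, above the 0.27 of all genes and below the 0.63 of the brightest group, to which all 3 belong. The other activators, Psme3 of the nucleus and Psme4, had means of 0.05 and 0.06 and were not called. A second probe of Psme4, measured by 10 spots, gave -0.02, 0.17 and -0.19, a mean of -0.01. Psmc3ip and Psme3ip1, which are not subunits, had means of 0.03 and -0.09 and were not called either.

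Members of opposite direction were set beside their promoters for the letters of the antioxidant response element, TGACNNNGC, to which factors that raise proteasome genes bind. It was found in 8 of 36 subunit promoters (22.2%) and in 12.1% of all promoters. Among carriers, 1 of the 10 genes called higher with a promoter, Psmb6 (chr10:55737638-55737937, plus strand), and 2 of the 5 called lower, Psmd1 (chr9:94157721-94158020, plus strand) and Psmd9, held it, as did 5 of the 21 not called, and matches are in capitals.
Psmb6: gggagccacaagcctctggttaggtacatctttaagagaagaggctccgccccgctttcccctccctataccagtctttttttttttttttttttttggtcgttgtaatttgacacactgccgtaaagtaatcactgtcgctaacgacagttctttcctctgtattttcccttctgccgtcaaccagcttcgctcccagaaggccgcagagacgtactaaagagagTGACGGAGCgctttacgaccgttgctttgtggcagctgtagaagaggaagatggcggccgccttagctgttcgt
Psmd1: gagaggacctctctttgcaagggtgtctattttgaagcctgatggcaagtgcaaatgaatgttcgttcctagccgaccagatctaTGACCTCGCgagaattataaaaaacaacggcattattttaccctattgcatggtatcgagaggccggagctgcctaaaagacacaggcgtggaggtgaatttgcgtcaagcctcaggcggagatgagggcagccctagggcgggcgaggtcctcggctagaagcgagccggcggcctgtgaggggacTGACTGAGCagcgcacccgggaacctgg
The CCAAT box, searched as CCAAT on both strands, was in 19 of 36 subunit promoters (52.8%) and 37.5% of all promoters, in 7 of the 10 called higher, 3 of the 5 called lower and 9 of the 21 not called. These motif counts are descriptions and were not tested.

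The subunits were brighter than most genes, with a median log2 intensity of 9.19 against 7.45 over all genes tested. When all genes were split by brightness into 3 groups of like size, the brightest group held 27 of the 42 genes of the rule, 7 called higher and 5 lower, where the shares over all genes of that group were 17.7% and 30.6%. All 5 genes called lower lay in that group. Median centring does not adjust for brightness, and under it the all-gene median reached 0.63 in the brightest group, 0.35 in the middle one and -0.04 in the dimmest. The medians of the 27, 12 and 3 members in these groups were 0.69, 0.53 and 0.26 with median centring. With loess they were 0.01, 0.10 and 0.05, against -0.06, -0.04 and -0.05 for all genes of these groups.

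**Figure D3:**
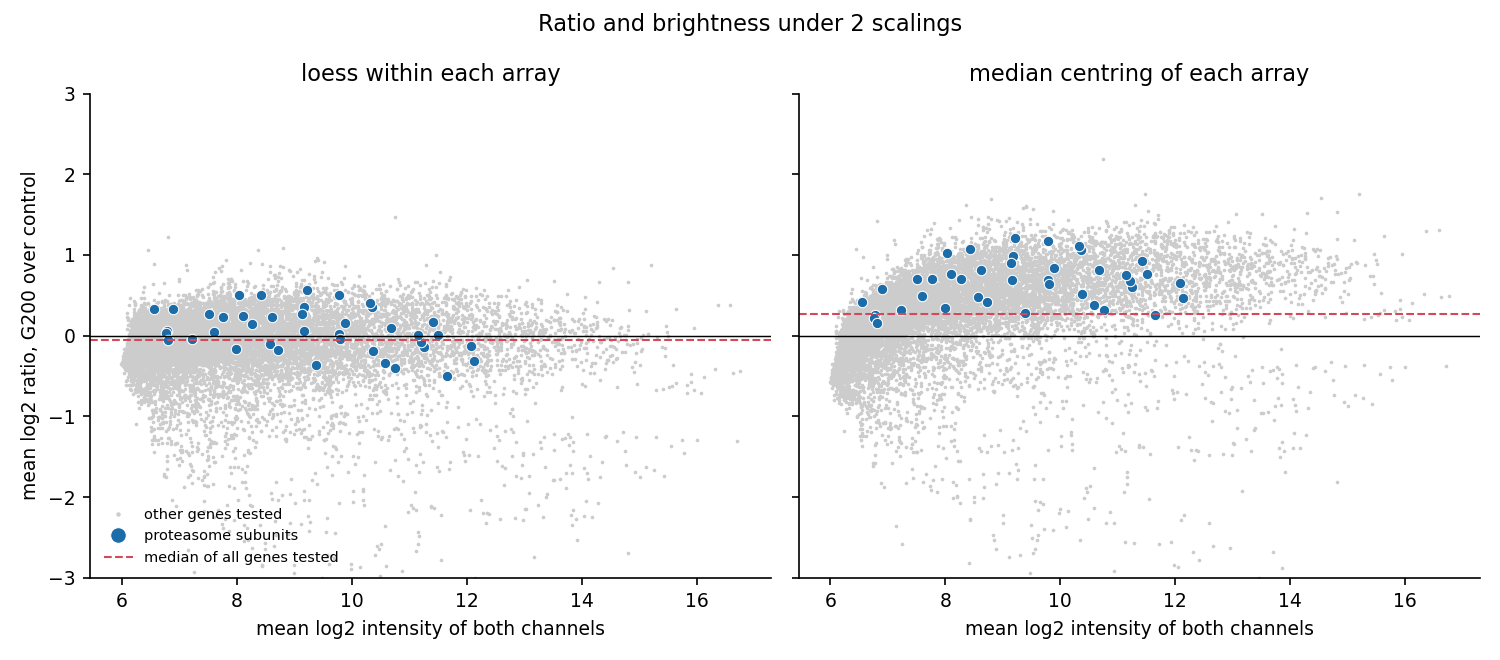
Mean log2 ratio of G200 over control (vertical axis) against mean log2 intensity of both channels (horizontal axis) for the genes tested, with the 40 subunits in blue, after loess (left) and median centring (right), genes outside -3 to 3 not drawn. After median centring the ratio climbs with brightness and the subunits lie above 0, while after loess they lie on both sides of 0.

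The arrays differed in how far the subunits moved. All 12 subunits called higher had their lowest ratio on replicate 2, against 65.4% of the 1629 genes called higher on the array. The sign was the same on all 3 arrays for 28 of the 40 subunits (70.0%) and for 68.3% of all genes tested. In the 6 members measured by 10 spots, the spots of 1 array had an SD of 0.05 to 0.11 in the log2 ratio, and the median SD between arrays was 0.05, against 0.12 for the 36 members with 1 spot.

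**Figure D4:**
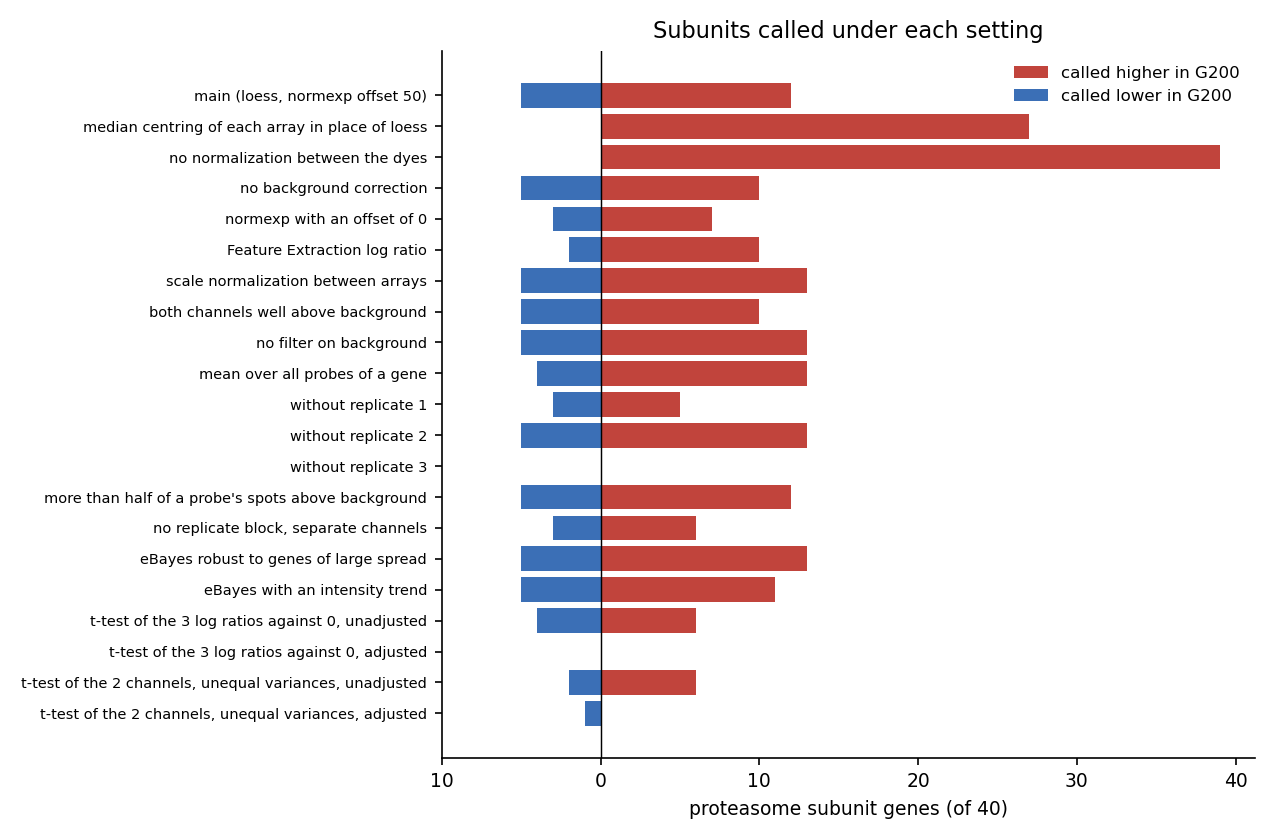
Number of the 40 subunit genes called higher (red, to the right) and lower (blue, to the left) in G200 under the main setting and each alternative. Without normalization between the dyes 39 were called higher and 0 lower, and without replicate 3 none was called.

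Genes that build, regulate or serve the proteasome were described next. Of 35 such genes 27 were tested, 3 were called higher and 4 lower, with a median of 0.00, where 11.5% of all genes were called higher and 26.0% lower. Vcp, the segregase that pulls ubiquitinated proteins from complexes, had the highest ratio at 0.52 ± 0.16 (SD, n = 3). The proteasome inhibitor Psmf1 was called lower, at -0.40, and was 0.17 with median centring. Pomp, the maturation factor of the core, had a mean of 0.05, and Nfe2l1, which raises proteasome genes when the proteasome is impaired, one of 0.11, and neither was called.

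Of 16 genes of antigen processing on MHC class I, 13 were tested, 3 were called higher and 1 lower, against 11.5% and 26.0% of all genes, with a median of 0.12. The lowest was the chaperone Calr at -0.37 ± 0.25 (SD, n = 3), with 0.28 under median centring. Of 25 interferon response genes, 21 were tested, 4 were called higher and 7 lower, against 11.5% and 26.0% of all genes, with a median of 0.02. They ranged from Mx2 at -1.47 ± 0.20 (SD, n = 3) to Cxcl10 at 0.68 ± 0.22 (SD, n = 3), and Mx2 was -0.65 with median centring.

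Markers of other cell types were read beside these results. Kidney markers were present, with 11 of 12 proximal tubule genes and all 5 of the thick ascending limb tested, 3 of each called higher, and 2 of the proximal tubule called lower, where 11.5% of all genes were called higher and 26.0% lower. Their median log2 ratios were 0.06 and 0.41. Of the distal convoluted tubule 1 of 4 was tested, of principal cells 5 of 5 and of endothelium 4 of 6, with 0 called higher and, in the endothelium, 1 called lower. The tested gene of the distal convoluted tubule, Slc12a3, had ratios of 1.23, -0.0036 and -0.20 on replicates 1, 2 and 3 and was not called. The medians of principal cells and endothelium were 0.17 and -0.10 with loess, and 0.65 and 0.34 with median centring. Of intercalated cells 4 of 5 were tested, 1 called higher and 1 lower, with a median of 0.16. Of podocytes 6 of 6 were tested and 1 was called higher, with a median of 0.38 and of 0.83, 0.11 and 0.26 on replicates 1, 2 and 3. Of 20 liver marker genes, 18 were tested and all 18 were called lower, with a median log2 ratio of -3.03 and -1.62, -3.14 and -4.25 on replicates 1, 2 and 3. Their summed intensity was 218077, 246288 and 255791 in the control and 64256.9, 25736.5 and 10210.2 in G200. By the mean over both channels Tf had the brightest probe, while in the control channel the probe of Ttr was brighter on each array and that of Alb on replicates 2 and 3. Cps1 and Tat were not past the filter, and the median of the liver list was -2.28 with median centring.

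Of 30 leukocyte markers, 19 were tested, 3 were called higher (Lyz2, Cd74 and Cd48) and 0 lower, against 11.5% and 26.0% of all genes, with a median of 0.01. Their summed intensity was 15027, 14326.6 and 14474.8 in the control and 20467.1, 15309.8 and 20001.9 in G200, and Lyz2 had the brightest probe. The T and B cell markers Cd3e, Cd4, Cd8a, Cd8b and Cd79b were not past the filter, and Ms4a1 and Cd79a had no probe. The part that liver or leukocyte transcripts had in the ratios of the proteasome genes, the immunoproteasome subunits among them, was not tested. In whole tissue, fewer cells of a type and less RNA per cell cannot be told apart.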

How the data were processed

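The authors deposited Agilent Feature Extraction tables with median spot intensity and local background per colour, and with a dye-corrected log10 ratio of red over green. The submitters' notes name version 9.3.2.1 of Feature Extraction, and it is 11.5.1.1 per the file headers. The deposited signals were background-corrected (normexp, offset 50) and loess-normalized within arrays in limma 3.58.1 (R 4.3.3), leaving out outlier spots, and replicate spots were averaged. Of 30367 probes, 18355 had a symbol in the RefSeq table of GRCr8. A probe was kept when at least 50% of its spots were well above background in 1 channel on all 3 arrays, and the brightest probe stood for its gene. Ratios were tested by lmFit and eBayes of limma, with Benjamini-Hochberg adjustment over all 14188 genes. Of these, 8917 had a symbol, and the rest, listed by probe name or accession, were counted as genes too. The array is the block, since both channels were hybridised on it. Levels are log2 intensities after Aquantile normalization. The members and lists were chosen with earlier results of these data known. By rule, values on every array are given for the immunoproteasome subunits, their counterparts and the 3 highest and 3 lowest ratios of core and cap. Mean ratios are given for the highest or lowest member, or both, of the lists of assembly and regulation, antigen processing and interferon response. Other genes were named with their values known, and cell type markers are given as lists. Alternatives covered background, scaling, filter, probes, block, test and each array left out. Between 56.6% and 63.0% of the spots of a channel were well above background, and the number of arrays limits the precision.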

Additional observations from a re-analysis of the deposited data

How the results depend on the processing

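Scaling, the test, leaving out replicate 3 and other alternatives given here moved the number of subunits called, and the cause was not tested. The main analysis called 5318 genes and 17 subunits. With median centring, 27 subunits were called, 27 higher and 0 lower. The class medians were then 0.75 for core alpha, 0.92 for core beta, 0.52 for the immunoproteasome, 0.68 for cap ATPases, 0.37 for cap non-ATPases and 0.47 for other activators. Psmb8 minus Psmb5, a gene of the dimmest brightness group and one of the brightest, was -0.40. The means were 0.65 for Psme1, 0.61 for Psme2, 0.64 for Psmb2, 0.26 for Psma4, 0.37 for Psmd4, 0.28 for Psmd9 and 0.32 for Psmd1. With no normalization between the dyes, 8314 genes and 39 subunits were called, 39 higher and 0 lower. The class medians, in the same order, were 1.10, 1.28, 0.87, 1.04, 0.73 and 0.83. The means were 0.77 for Psmb9, 0.87 for Psmb10, 1.01 for Psme1, 0.96 for Psme2, 0.99 for Psmb2, 0.61 for Psma4, 0.73 for Psmd4, 0.63 for Psmd9 and 0.67 for Psmd1. With a normexp offset of 0, 10 subunits were called, 7 higher and 3 lower. With the deposited log ratio 10 were called higher and 2 lower, and the class medians were 0.39 for core beta, 0.14 for cap ATPases, 0.087 for cap non-ATPases and 0.14 for other activators. Without the array as block, which ignores the pairing, 9 subunits were called, 6 higher and 3 lower.

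A t-test of the log ratios against 0 called 10 subunits without adjustment, 6 of them higher, and with it 2 genes and 0 subunits, 0 higher and 0 lower. The t-test with unequal variances between groups that the study's methods name, run on the separate channels, called 8 without adjustment, 6 higher and 2 lower, and with it 360 genes and 1 subunit, 0 higher and 1 lower. Leaving out each array in turn gave 1507 to 5100 genes, 0 to 18 subunits, 0 to 13 higher and 0 to 5 lower, with the lowest values without replicate 3 (0 subunits), and 5 higher and 3 lower without replicate 1. The share of calls that were higher was 30.6% in the main analysis and became 79.6% under median centring, 96.3% with no normalization, 40.4% with the deposited log ratio, 10.3% without replicate 3 and 18.3% with the adjusted t-test on the channels.

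A slide or scan block was not run, since all arrays lay on 1 slide. Asking that more than 50% of the spots of a probe be above background was chosen after seeing the data, to match a number of genes known from earlier results, and was not kept for that reason. It left 14179 genes with the same 12 subunits called higher and 5 lower. Signal over background limits what can be said of Psma8, which was not well above it on any array.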
